A study of Homo sapiens with 11 samples.

Results

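The miR-15/16 family was followed across 6 human tumour-derived cell lines by small RNA-seq. Its 9 members were hsa-miR-15a-5p, hsa-miR-15b-5p, hsa-miR-15b-3p, hsa-miR-16-5p, hsa-miR-195-5p, hsa-miR-497-5p, hsa-miR-424-5p, hsa-miR-424-3p and hsa-miR-503-5p, chosen by name out of 2588 mature miRNAs and written without the species prefix from here on. All 11 libraries came from untreated parental cells: 2 each of Hep-G2 (liver cancer), BE(2)-C (from a neuroblastoma), MV3 (from a melanoma), ES-2 (ovarian cancer) and A-549 (lung cancer), and a single library of PANC-1 (pancreatic cancer). The labels spell these lines A549, ES2, MV3, BE(2)C, HepG2 and PANC1. For PANC-1, MV3, ES-2 and A-549, 50 ng of total RNA went into a NEXTflex kit, whereas the provider Novogene prepared both BE(2)-C and both Hep-G2 libraries, so that the line and its preparation cannot be told apart wherever one of the 4 NEXTflex lines is set against one of the 2 Novogene lines. BE(2)-C cells also grew in another medium, and their harvest is given as 24 h after seeding in the protocol but 48 h in the sample characteristics, the time of the other lines. The study's methods call the replicates biological, without saying which step was carried out separately, and all tests measure the spread between these libraries.

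MiRNAs guide Argonaute proteins to mRNAs that pair with their seed, the bases 2 to 8 from the 5′ end, and the bound mRNAs are repressed or degraded. A hairpin precursor is cut into a duplex whose arms are named 5p and 3p, and usually one arm is retained while the other is discarded. The miR-15/16 family is known as a brake on cell division that targets cyclins, cyclin-dependent kinases and the survival factor BCL2, and loss of its chromosome 13 locus is a textbook lesion of chronic lymphocytic leukaemia. All 9 members are shown here, to set the seed shared by most 5p arms beside those of miR-503-5p and of both 3p arms (RefSeq sequences, GRCh38.p14, seed in capitals).
miR-15a-5p: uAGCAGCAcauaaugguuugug
miR-15b-5p: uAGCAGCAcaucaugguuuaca
miR-16-5p: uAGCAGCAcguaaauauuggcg
miR-195-5p: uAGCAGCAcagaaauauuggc
miR-497-5p: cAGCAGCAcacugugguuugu
miR-424-5p: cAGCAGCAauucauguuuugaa
miR-503-5p: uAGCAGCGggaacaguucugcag
miR-15b-3p: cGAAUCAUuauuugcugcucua
miR-424-3p: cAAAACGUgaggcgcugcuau
The seed AGCAGCA was identical in 6 of the 9 members. MiR-503-5p ended its seed in G in place of A, and both 3p arms carried seeds of their own. MiR-16-5p and miR-195-5p differed at 2 of 21 compared bases, miR-15a-5p and miR-15b-5p at 4 of 22. The rule by which reads that match several members had been counted is not given in the sources used here. Among all other miRNAs of the reference, miR-6838-5p alone shared the seed AGCAGCA, and it had 4 reads over all 11 libraries.

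The members come from 4 loci (GRCh38, GENCODE v44). MIR15A (chr13:50049119-50049201, minus strand) and MIR16-1 (chr13:50048973-50049061) lie 57 bases apart in the long non-coding RNA gene DLEU2, within an exon of some of its transcripts and within introns, respectively. MIR15B (chr3:160404588-160404685, plus strand) and MIR16-2 (chr3:160404745-160404825) lie 59 bases apart in an intron of the coding gene SMC4, a subunit of condensin. MIR195 (chr17:7017615-7017701, minus strand) and MIR497 (chr17:7017911-7018022) lie in the non-coding MIR497HG. MIR424 (chrX:134546614-134546711, minus strand) and MIR503 (chrX:134546328-134546398) are 215 bases apart and overlap exons of the non-coding MIR503HG. MIR542, MIR450A1, MIR450A2 and MIR450B lie further along the same strand of the X chromosome, the nearest of them 4890 bases from MIR503. Both miR-16 genes yield the same mature miR-16-5p, so that its reads cannot be assigned to a locus.

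Between 1173902 and 12137452 reads per library were assigned to miRNAs (median 2670030). Levels are given as CPM, reads of a miRNA per 1000000 reads of all listed miRNAs, recomputed from the whole reads behind the deposited values. Where no read was found, up to 3 reads remain possible from counting error alone, equal to 0.247 to 2.56 CPM depending on the library. Mature miRNAs are sequenced end to end and the members differ little in length (21 to 23 bases), so that levels of different members were compared without a length correction, whereas the efficiency with which each sequence enters a library was not measured. CPM is a share: miR-148a-3p took 75.3% and 72.6% of the reads in the Hep-G2 libraries. MiR-21-5p took 65.0% and 64.2% in A-549 against 27.0% to 33.5% in the other NEXTflex lines. TMM (trimmed mean of M-values) factors were 0.166 and 0.217 in Hep-G2, 1.02 and 1.10 in A-549 and 1.32 to 1.87 elsewhere. The part of these shares in the differences between lines was not tested. Line identity was checked with miRNA marker lists. The 4 neuronal markers summed to 153380.0 and 141643 CPM in BE(2)-C and to at most 6355 CPM elsewhere, whereas the liver markers set Hep-G2 apart in 1 of 4. MiR-192-5p was at 15552 and 16165 CPM there and at most 2874 CPM elsewhere, but miR-194-5p (219 and 240.4 CPM) was higher in A-549 (1883 and 1899 CPM), miR-122-5p (64.0 and 50.0 CPM) was higher in BE(2)-C replicate 1 (823 CPM), and miR-122-3p had no read. The melanocytic miR-211-5p had no read in MV3, miR-204-5p at most 1.70 CPM there, and the pancreatic miR-216a-5p and miR-217 had none in PANC-1. The remaining pancreatic marker, miR-375, was at 26.8 CPM in PANC-1 but at 6373 and 4866 CPM in BE(2)-C. In bulk RNA, fewer cells with a miRNA and less of it per cell cannot be told apart.

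MiR-16-5p, the most abundant member in every library, was above 1500 CPM in the NEXTflex lines and far lower in both Novogene lines. Its level was 1649 and 1527 CPM in A-549, 3075 and 3184 CPM in ES-2, 3500.3 and 3890.2 CPM in MV3 and 3809.6 CPM in PANC-1. In BE(2)-C it was 184 and 406 CPM, and in Hep-G2 14.1 and 12.2 CPM. The libraries of neighbouring lines did not overlap, except that PANC-1 lay within the MV3 pair. Reads were split almost evenly between both genomic rows of miR-16-5p (48.1% to 55.4% on the chromosome 13 row).

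The 3p arms, which differ in sequence, do tell the miR-16 loci apart. MiR-16-2-3p, the arm specific to the chromosome 3 hairpin, had 897 to 6976 reads in the NEXTflex libraries, whereas miR-16-1-3p, specific to chromosome 13, had 0 to 7. MiR-16-1-3p was thus at most 0.538% of both arms in these libraries. It was 6.71% and 4.37% in BE(2)-C with 61 and 56 reads, and 0.556% and 1.07% in Hep-G2 with 2 and 4 reads. How efficiently either 3p arm is kept was not measured, so that these shares are not shares of transcription. Relative to miR-16-5p, miR-16-2-3p stood at 0.188 to 0.566 in the NEXTflex libraries and 0.612 and 0.462 in BE(2)-C, but at 2.13 and 2.51 in Hep-G2, where it exceeded miR-16-5p.

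MiR-15b-5p, processed from the hairpin next to MIR16-2, was the next most abundant member in MV3, PANC-1 and Hep-G2, whereas miR-424-3p or miR-503-5p exceeded it in both BE(2)-C libraries, ES-2 replicate 1 and A-549 replicate 2. It reached 669 and 521 CPM in A-549, 1147 and 1278 CPM in ES-2, 1985 and 1849 CPM in MV3 and 1661 CPM in PANC-1. The BE(2)-C libraries held 60.8 and 172 CPM and those of Hep-G2 8.67 and 8.32 CPM. No neighbouring lines overlapped in this order from MV3 down to Hep-G2. Its log2 profile over the 6 line means was the one most like that of miR-16-5p among the other members (Pearson r 0.996, a description over 6 lines that also differ in preparation).

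MiR-15a-5p, from the chromosome 13 locus, was far scarcer than its chromosome 3 relative. It was measured at 72.3 and 67.9 CPM in A-549, 138 and 117 CPM in ES-2, 112 and 150.4 CPM in MV3 and 51.7 CPM in PANC-1. In BE(2)-C it was at 5.05 and 15.7 CPM, and in Hep-G2 at 1.01 and 0.989 CPM, which rests on 12 reads in each library. ES-2 and MV3 overlapped, and the other neighbours did not. Plain ratios of miR-15a-5p to miR-15b-5p were 0.108 and 0.130 in A-549, 0.121 and 0.0917 in ES-2, 0.0562 and 0.0813 in MV3, 0.0311 in PANC-1, 0.0832 and 0.0916 in BE(2)-C and 0.117 and 0.119 in Hep-G2. PANC-1 therefore had the least miR-15a-5p per miR-15b-5p. The log2 ratio, formed from CPM + 1, differed between lines in an exact permutation test of the F statistic over all 10395 assignments of libraries to lines (adjusted p = 0.00168 over the 5 ratios tested in this way), and over the 105 assignments of the NEXTflex libraries alone (adjusted p = 0.0476). On that scale Hep-G2 ranks highest because of the added 1, whereas on plain ratios it overlapped A-549.

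MiR-15b-3p, the partner arm of miR-15b-5p, had its highest levels in MV3. It was at 68.2 and 61.1 CPM in A-549, 135 and 130.3 CPM in ES-2, 376 and 393 CPM in MV3 and 164 CPM in PANC-1. Hep-G2 held 3.37 and 1.40 CPM. BE(2)-C gave 124 CPM in replicate 1 and 5.66 CPM in replicate 2, so that its mean of 64.6 ± 83.3 CPM (SD, n = 2) describes neither library.

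The chromosome 17 pair was weak throughout. MiR-195-5p, which shares almost its whole sequence with miR-16-5p, was at 16.9 and 16 CPM in A-549, 9.62 and 12.2 CPM in ES-2, 19.6 and 10.3 CPM in MV3 and 25.5 CPM in PANC-1. BE(2)-C held 3.32 and 6.57 CPM and Hep-G2 0.421 and 0.165 CPM, the latter from 5 and 2 reads. A-549 lay above ES-2 without overlap, from 45 and 33 reads against 16 and 28. Both overlapped MV3, whose place among these 3 lines cannot be given. MiR-497-5p was at 2.62 and 2.91 CPM in A-549, 10.2 and 7.41 CPM in ES-2, 14.5 and 11.6 CPM in MV3, 17.2 CPM in PANC-1, 2.79 and 3.98 CPM in BE(2)-C and, from 1 read each, 0.0842 and 0.0824 CPM in Hep-G2. The ratio of miR-497-5p to miR-195-5p was 0.156 and 0.182 in A-549 and lay between 0.607 and 1.12 in ES-2, MV3 and PANC-1. This ratio did not pass the exact permutation test over the 6 lines (adjusted p = 0.1). The NEXTflex counts behind it were 6 to 18 reads of miR-497-5p per library apart from PANC-1 with 168.

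The X chromosome members followed another order, led by ES-2. MiR-424-5p was at 382 and 285 CPM in A-549, 617 and 563 CPM in ES-2, 193 and 155 CPM in MV3 and 199 CPM in PANC-1. It was at 9.44 and 21.6 CPM in BE(2)-C and had 1 read and 0 reads in Hep-G2. The order from ES-2 over A-549, PANC-1, MV3 and BE(2)-C to Hep-G2 was free of overlap, although PANC-1 exceeded the higher MV3 library by little.

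MiR-424-3p, the other arm of the same hairpin, was at 659.5 and 626 CPM in A-549, 1169 and 1243 CPM in ES-2, 375 and 432 CPM in MV3, 349 CPM in PANC-1, and 77.1 and 153 CPM in BE(2)-C. Neither Hep-G2 library held a read of it. MiR-503-5p, whose seed differs from AGCAGCA in its last base, was at 619.8 and 516 CPM in A-549, 1200.1 and 1119 CPM in ES-2, 455 and 486 CPM in MV3, 199 CPM in PANC-1, 165 and 217 CPM in BE(2)-C, and 0.0842 and 0 CPM in Hep-G2. PANC-1 lay within the BE(2)-C pair, and no other neighbours overlapped. On CPM the chromosome 3 and 13 members were thus highest in MV3 or PANC-1, with miR-15a-5p overlapping between MV3 and ES-2, whereas with TMM factors miR-15a-5p and miR-16-5p were highest in ES-2. The 3 X chromosome members were highest in ES-2 on both scales.

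**Figure D1:**
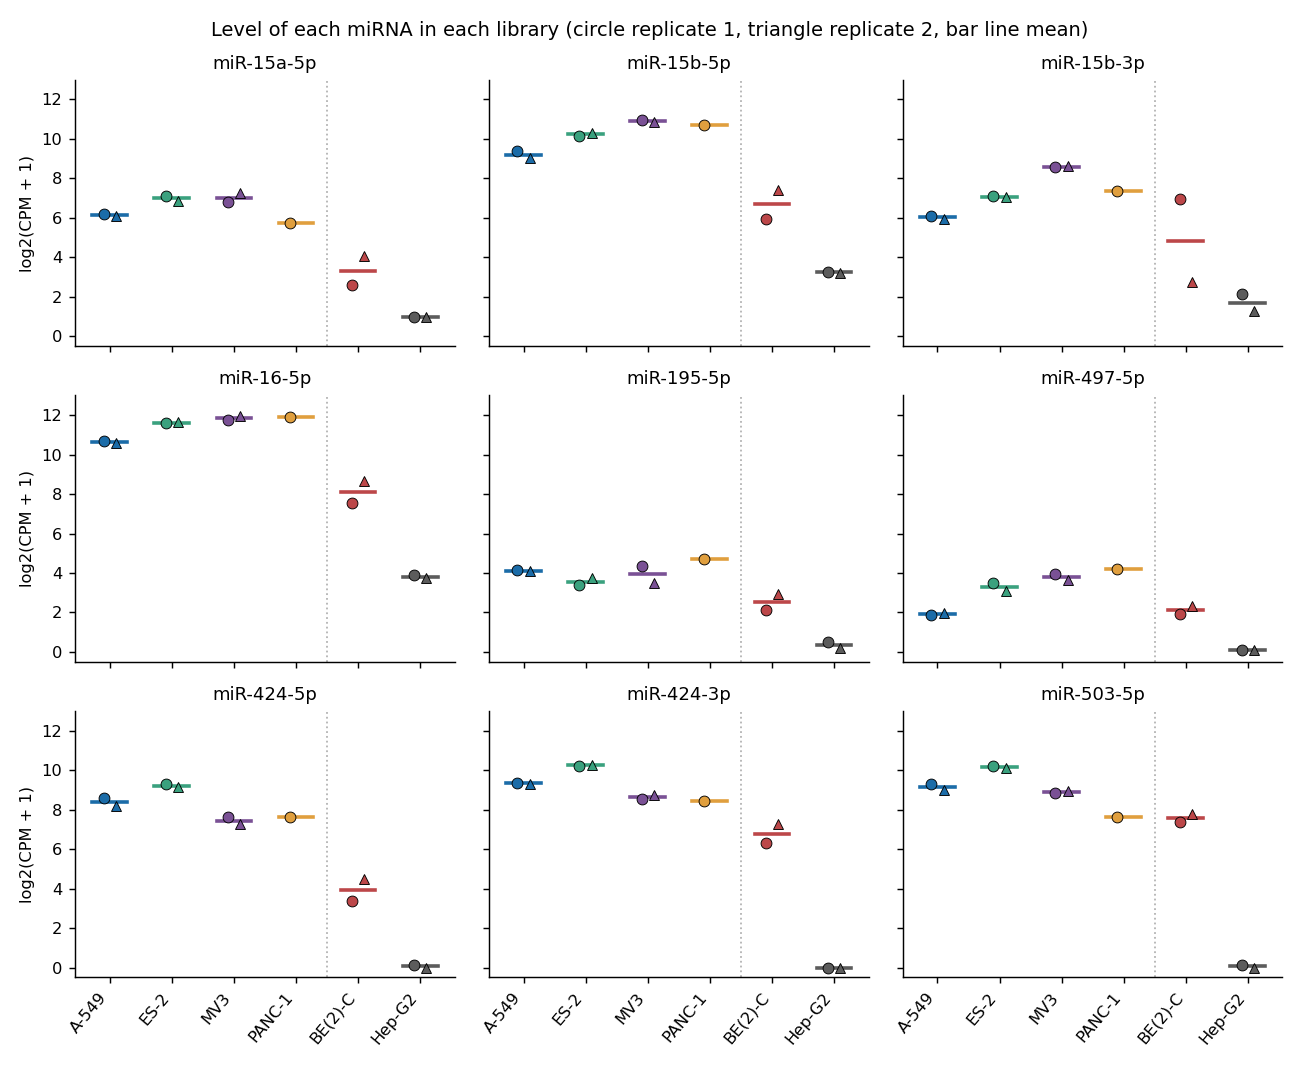
Level of each of the 9 miRNAs as log2(CPM + 1) on the vertical axis for each cell line on the horizontal axis; circles are replicate 1, triangles replicate 2 (PANC-1 has 1 library), bars are line means, and the dotted line separates the NEXTflex lines (left) from the Novogene lines (right). Hep-G2 is lowest for all 9 miRNAs, ES-2 is highest for miR-424-5p, miR-424-3p and miR-503-5p, and the BE(2)-C libraries lie far apart for miR-15b-3p.

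Most members differed in level between lines under each fit. All 9 passed the low-value filter, and in a limma F test over the 6 lines all 9 of 9 passed an adjusted p of 0.05 (adjusted p from 8.34e-08 for miR-503-5p to 0.00566 for miR-15b-3p). Of all 546 miRNAs tested, 99.3% did so, and the count of members is to be read against that share. MiR-15b-3p no longer passed with TMM factors (adjusted p = 0.0664) or DESeq2 (adjusted p = 0.0981). Within the 4 NEXTflex lines, where preparation does not vary, 8 of 9 passed against 85.4% of 453 miRNAs tested. The exception was miR-195-5p (adjusted p = 0.279), and the smallest values belonged to miR-15b-3p (adjusted p = 0.000157) and miR-424-3p (adjusted p = 0.000275). MiR-497-5p was lost within these lines with edgeR (adjusted p = 0.259) and DESeq2 (adjusted p = 0.123).

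Most members had higher levels in ES-2 than in A-549, but with all libraries fitted the share called was below that of all miRNAs. With all libraries in the fit, 4 of 9 members were called and all 4 were higher in ES-2, against 50.5% of all miRNAs called in either direction. These were miR-497-5p (log2 difference ES-2 over A-549 of 1.37, SE 0.30, adjusted p = 0.00593), miR-503-5p (1.03, SE 0.20, adjusted p = 0.00321), miR-16-5p (0.98, SE 0.33, adjusted p = 0.0388) and miR-424-3p (0.91, SE 0.30, adjusted p = 0.0375). Of the 5 members not called, 4 had differences of 0.84 to 1.03 in the direction of ES-2, and miR-195-5p one of 0.56 in the direction of A-549. The median over the members was 0.98 higher in ES-2, and over all miRNAs tested 0.17 higher. MiR-21-5p took 65.0% and 64.2% of the reads in A-549 and 28.2% and 27.0% in ES-2. Its part in these differences on CPM was not tested.

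The number of calls depended on which libraries set the error. Fitted on the 7 NEXTflex libraries alone, 8 of 9 members were called, all higher in ES-2, against a background of 63.4%. The differences themselves were the same in both fits, and the SE of miR-16-5p fell from 0.33 to 0.07. With TMM factors 2 were called (miR-497-5p and miR-503-5p) against 47.3% of all miRNAs. EdgeR and DESeq2 called 0 of 9, each with 1 member at an unadjusted p under 0.05, against 41.4% and 42.1% of all miRNAs. The direction towards ES-2 in 8 of 9 members was common to these fits, and the number past the threshold was not.

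Which members differed between MV3 and A-549 depended on the fit. On CPM, MV3 exceeded A-549 in miR-15b-5p, miR-16-5p and miR-497-5p, whereas edgeR and DESeq2 called none of these and called the X chromosome members, higher in A-549. In the limma fit on CPM, 3 of the 9 were called, all higher in MV3, against 57.3% of all miRNAs: miR-497-5p (log2 difference MV3 over A-549 of 1.89, SE 0.30, adjusted p = 0.00121), miR-15b-5p (1.70, SE 0.42, adjusted p = 0.0102) and miR-16-5p (1.22, SE 0.33, adjusted p = 0.0143). MiR-15b-3p differed most among the members not called, by 2.56 with an SE of 1.13. MiR-424-5p and miR-424-3p pointed the other way, 0.93 and 0.67 higher in A-549, without being called. On the NEXTflex libraries alone 7 of 9 were called against 66.0%, 5 higher in MV3 and 2, both miR-424 arms, higher in A-549.

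Scaling moved this split. The median of all miRNAs was 0.47 higher in MV3 on CPM and 0.00 with TMM factors, and with TMM factors 4 of 9 members were called against 48.0% of all miRNAs. Of these, 3 were higher in A-549, namely miR-424-5p (1.72, SE 0.38, adjusted p = 0.00719), miR-424-3p (1.47, SE 0.28, adjusted p = 0.00318) and miR-503-5p (1.06, SE 0.25, adjusted p = 0.0101), and only miR-497-5p was higher in MV3. Relative to the bulk of miRNAs the X chromosome members were thus higher in A-549, and miR-16-5p and miR-15b-5p were no longer called. EdgeR and DESeq2 each called 3 of 9, the same X chromosome members, against 40.8% and 41.8% of all miRNAs, with log2 differences A-549 over MV3 of 1.73 and 2.02 for miR-424-5p, 1.47 and 1.75 for miR-424-3p and 1.07 and 1.35 for miR-503-5p. In these fits the adjusted p of miR-497-5p was 0.12 (edgeR) and 0.223 (DESeq2), that of miR-15b-5p 0.0863 and 0.217, and that of miR-16-5p 0.353 and 0.751.

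Against MV3, ES-2 had more of the X chromosome members. Of the 9 members 3 were called, all higher in ES-2, against 32.8% of all miRNAs: miR-424-5p (log2 difference ES-2 over MV3 of 1.76, SE 0.37, adjusted p = 0.0084), miR-424-3p (1.58, SE 0.30, adjusted p = 0.00549) and miR-503-5p (1.30, SE 0.20, adjusted p = 0.00202). The same 3 were called with TMM factors, against 27.1% of all miRNAs. On the NEXTflex libraries alone 5 of 9 were called against 43.3%, the same 3 in favour of ES-2 and miR-15b-3p (1.53, SE 0.11, adjusted p = 0.000523) and miR-15b-5p (0.66, SE 0.14, adjusted p = 0.0193) in favour of MV3. MiR-15a-5p, miR-16-5p and miR-195-5p changed the sign of their small differences with the scaling and were called in neither direction.

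The Novogene lines were compared with each other, since they share a preparation. BE(2)-C exceeded Hep-G2 in all 9 of 9 members, most for miR-503-5p and miR-424-3p, against 83.0% of all miRNAs called. The log2 differences were 7.51 for miR-503-5p (SE 0.20, adjusted p = 7.06e-08), 6.78 for miR-424-3p (SE 0.30, adjusted p = 3.61e-07), 4.28 for miR-16-5p (SE 0.33, adjusted p = 6.73e-06) and 3.88 for miR-424-5p (SE 0.37, adjusted p = 2.43e-05). The other 5 lay between 2.00 for miR-497-5p and 3.44 for miR-15b-5p. The median over all miRNAs tested was 2.79 higher in BE(2)-C, which lies within the range of these 5.

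With TMM factors the median over all miRNAs became 0.49, and 5 of 9 members remained called against 64.3% of all miRNAs: miR-503-5p (6.67), miR-424-3p (6.17), miR-424-5p (3.08), miR-16-5p (1.36) and miR-497-5p (1.1). EdgeR and DESeq2 called 4 each, against 62.3% and 59.2% of all miRNAs, and miR-497-5p was not among them. In reads, BE(2)-C had 2661 of miR-503-5p, 1579 of miR-424-3p and 212 of miR-424-5p over both libraries, and Hep-G2 had 1, 0 and 1. The depth-adjusted ratio of summed reads was 4545 (exact 95% interval 815 to 179601) for miR-503-5p and 362 (64.3 to 14370.0) for miR-424-5p, and miR-424-3p was at least 305-fold and 605-fold higher in the lower and the higher BE(2)-C library when Hep-G2 is set to 3 reads per library. These intervals and bounds cover counting error only, since amplified reads are not independent molecules, and not the spread between the BE(2)-C libraries, which differed 2.28-fold for miR-424-5p. Hep-G2 was the lowest line for all 9 members on CPM, also with either BE(2)-C library left out. With TMM factors this held for all 9 on line means, for 8 without BE(2)-C replicate 1 and for 7 without replicate 2.

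The 6 members with the seed AGCAGCA were summed to show how much of this seed each line carried. Hep-G2 carried 23.1 ± 1.88 CPM, BE(2)-C 446 ± 255 CPM, A-549 2606 ± 263 CPM, ES-2 5079.6 ± 117 CPM and MV3 5945 ± 171 CPM (SD, n = 2 for each line), and the PANC-1 library 5764 CPM. The family seed thus made up 0.607% of miRNA reads at most. TMM scaling narrowed the spread to 2465, 3845, 3215, 3267, 285 and 124 CPM in A-549, ES-2, MV3, PANC-1, BE(2)-C and Hep-G2, and placed ES-2 above MV3.

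The makeup of the sum varied much less than its size. MiR-16-5p held 56.1% to 69.4% of it in each of the 11 libraries and miR-15b-5p 21.5% to 38.3%. Together with the 5p arms of miR-15a, at 0.897% to 4.55%, the chromosome 3 and 13 members made up most of the seed in every line. MiR-424-5p contributed 13.7% and 11.8% in A-549 (95% Wilson intervals 12.9% to 14.5% and 10.9% to 12.7%) and 12.4% and 10.9% in ES-2, but 3.32% and 2.55% in MV3, 3.45% in PANC-1, 3.55% and 3.45% in BE(2)-C and, with 1 read and 0 reads, 0.345% and 0% in Hep-G2. MiR-195-5p stayed at or below 1.72% and miR-497-5p at or below 1.05% in all libraries. These shares do not depend on the scaling of a library.

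**Figure D2:**
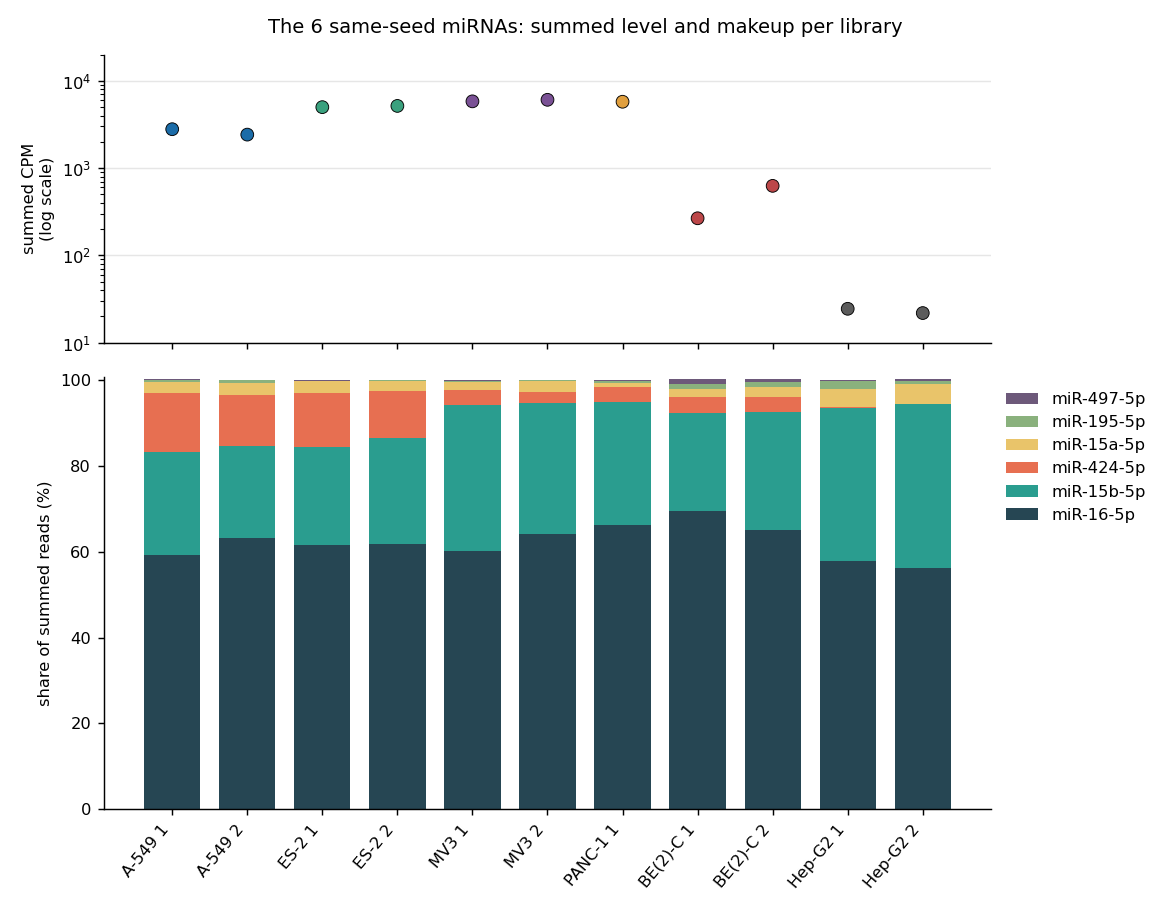
Upper panel, summed CPM (log scale) of the 6 miRNAs with the seed AGCAGCA in each of the 11 libraries, named by line and replicate; lower panel, the percentage of those summed reads that each of the 6 miRNAs contributed. The sum drops from 6067 CPM in MV3 replicate 2 to 21.8 CPM in Hep-G2 replicate 2, while miR-16-5p keeps between 56.1% and 69.4% of it, and the miR-424-5p segment is widest in A-549 and ES-2.

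Hairpins of 3 members are printed because their arms were used in different proportions (RefSeq, GRCh38.p14, each on its gene's strand, both mature arms in capitals and the 5p arm first).
MIR15B: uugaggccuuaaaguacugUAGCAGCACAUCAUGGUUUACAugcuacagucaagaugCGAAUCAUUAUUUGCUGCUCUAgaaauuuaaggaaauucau
MIR424: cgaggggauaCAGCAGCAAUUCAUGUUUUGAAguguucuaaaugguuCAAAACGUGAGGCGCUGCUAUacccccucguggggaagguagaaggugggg
MIR195: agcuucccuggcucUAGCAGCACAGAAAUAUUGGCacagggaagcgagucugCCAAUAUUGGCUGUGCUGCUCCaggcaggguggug
From MIR15B the 5p arm with the family seed dominated: it held 82.5% to 91.0% of both arms in the 7 NEXTflex libraries. Within these, MV3 had the smallest 5p shares, 84.1% and 82.5% (Wilson intervals 82.7% to 85.4% and 81.2% to 83.7%), and the other 5 libraries lay between 89.5% and 91.0%. Hep-G2 showed 72.0% and 85.6%, and BE(2)-C 33.0% and 96.8%. The 5p to 3p ratio of miR-15b passed the exact permutation test neither over the 6 lines (adjusted p = 0.899) nor over the NEXTflex lines (adjusted p = 0.143). With BE(2)-C replicate 1 or replicate 2 left out, the exact permutation test over the 6 lines was passed (adjusted p = 0.0067 in both cases), but with BE(2)-C as the highest line without replicate 1 (log2 ratio 4.70) and as the lowest without replicate 2 (-1.01), each time from a single library.

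From MIR424 the larger number of reads came from the 3p arm, which lacks the family seed. In all 9 libraries with more than 1 read of this hairpin, miR-424-3p exceeded miR-424-5p. The 5p share was 36.7% and 31.3% in A-549, 34.6% and 31.2% in ES-2, 34.0% and 26.4% in MV3 and 36.3% in PANC-1, a narrow range beside the spread of levels. In BE(2)-C the 5p share was 10.9% and 12.4% (Wilson intervals 8.74% to 13.5% and 10.6% to 14.4%), below every NEXTflex library. The ratio of both arms passed the exact permutation test over the 6 lines (adjusted p = 0.0101), but not without Hep-G2, whose ratio is set by the added 1 (adjusted p = 0.111), and not within the NEXTflex lines (adjusted p = 0.6).

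From MIR195 the 5p arm led in the NEXTflex libraries with 64.0% to 97.8% of both arms, whereas the 3p arm led in all 4 Novogene libraries. There the 5p share was 9.33% and 24.0% in BE(2)-C and 10.0% and 4.0% in Hep-G2. The reads behind these shares were few, 20 to 46 for both arms in the NEXTflex libraries other than PANC-1 and 50 in each Hep-G2 library. MiR-195-3p itself was at 32.3 and 20.8 CPM in BE(2)-C and at most 5.81 CPM in the other lines. With TMM factors BE(2)-C (22.3 and 12.9 CPM) overlapped Hep-G2 (22.8 and 18.2 CPM), and their difference was no longer called (adjusted p = 0.75). The leading arm of miR-195 thus differed between the preparations, and a larger 3p share was also seen for miR-424 in BE(2)-C. Hep-G2, with 1 read and 0 reads of the miR-424 hairpin, had too few for a share. For miR-15b the BE(2)-C libraries lay on either side of the NEXTflex range (5p share 33.0% and 96.8%). MiR-503-5p held at least 98.6% of the reads of its hairpin in all 9 libraries with more than 1 read. Line and preparation cannot be told apart here.

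**Figure D3:**
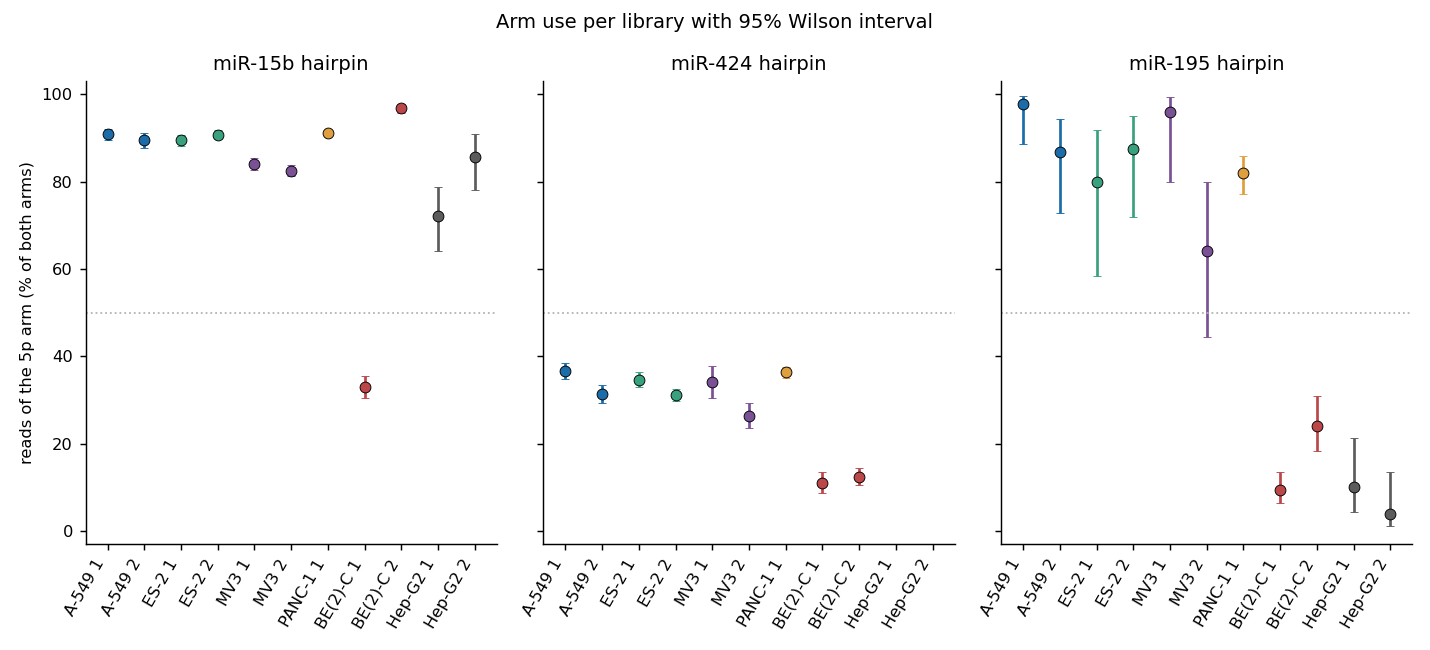
Percentage of reads from the 5p arm among reads of both arms of the miR-15b, miR-424 and miR-195 hairpins, for each library on the horizontal axis; bars are 95% Wilson intervals (counting error only), the dotted line marks equal arms, and libraries with fewer than 10 reads of a hairpin (miR-424 in Hep-G2) are left out. For miR-15b BE(2)-C replicate 1 lies apart at 33.0%, miR-424 lies below the dotted line throughout, and miR-195 lies above it in the NEXTflex and below it in the Novogene libraries.

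The X chromosome locus was not measured as a single unit. The ratio of miR-503-5p to miR-424-5p, neighbours 215 bases apart, was 1.62 and 1.81 in A-549, 1.94 and 1.99 in ES-2, 2.35 and 3.14 in MV3 and 0.999 in PANC-1. It was 17.5 and 10.1 in BE(2)-C, above all NEXTflex libraries. The lines differed in the exact permutation test (adjusted p = 0.000481 over the 6 lines, and 0.0476 over the NEXTflex lines, in which PANC-1 was lowest and MV3 highest). Both tests give their smallest possible raw p here, 0.0001 over the 6 lines and 0.00952 over the NEXTflex lines. In Hep-G2, with at most 1 read of either miRNA per library, the log2 ratio was set to 0 by the added 1. Without the Hep-G2 line (added after seeing the data) the adjusted p of the exact permutation test was 0.00529.

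The miRNAs that follow downstream on the same strand, miR-542-3p, miR-450a-5p and miR-450b-5p, went by a different order again. Of the 13 companion miRNAs of the 4 loci, 6 passed the low-value filter, and 4 of these 6 were called between A-549 and ES-2, where 50.5% of all miRNAs were: miR-450b-5p, miR-450a-5p and miR-542-3p were higher in A-549 by log2 differences of 2.41 (SE 0.30), 2.37 (SE 0.35) and 2.29 (SE 0.25), and miR-16-2-3p was higher in ES-2 by 0.95 (SE 0.23). Over the same pair of lines miR-424-3p and miR-503-5p were higher in ES-2. With TMM factors the 3 companions of the X chromosome stayed called in this direction, and miR-16-2-3p did not (0.63 higher in ES-2, adjusted p = 0.0589). Of the members, miR-503-5p stayed called with TMM factors (0.72 higher in ES-2, adjusted p = 0.0492) and miR-424-3p did not (0.59, adjusted p = 0.118). EdgeR and DESeq2 called neither of these members. In BE(2)-C miR-542-3p was at 337 and 307 CPM, the highest of all lines, where miR-424-5p was at 9.44 and 21.6 CPM.

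Summed over both sets, the ratio of miR-424 and miR-503 to miR-450a-5p, miR-450b-5p and miR-542-3p was 20.4 and 18.7 in ES-2, 3.39 and 3.55 in MV3, 2.18 and 1.82 in A-549, 1.47 in PANC-1 and 0.369 and 0.469 in BE(2)-C. Replicates lay close together, and none of these 5 lines overlapped. In Hep-G2 the first set had 2 reads and 0 reads and the second 9 and 9 reads, so that the whole locus was near the limit of detection in that line.

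**Figure D4:**
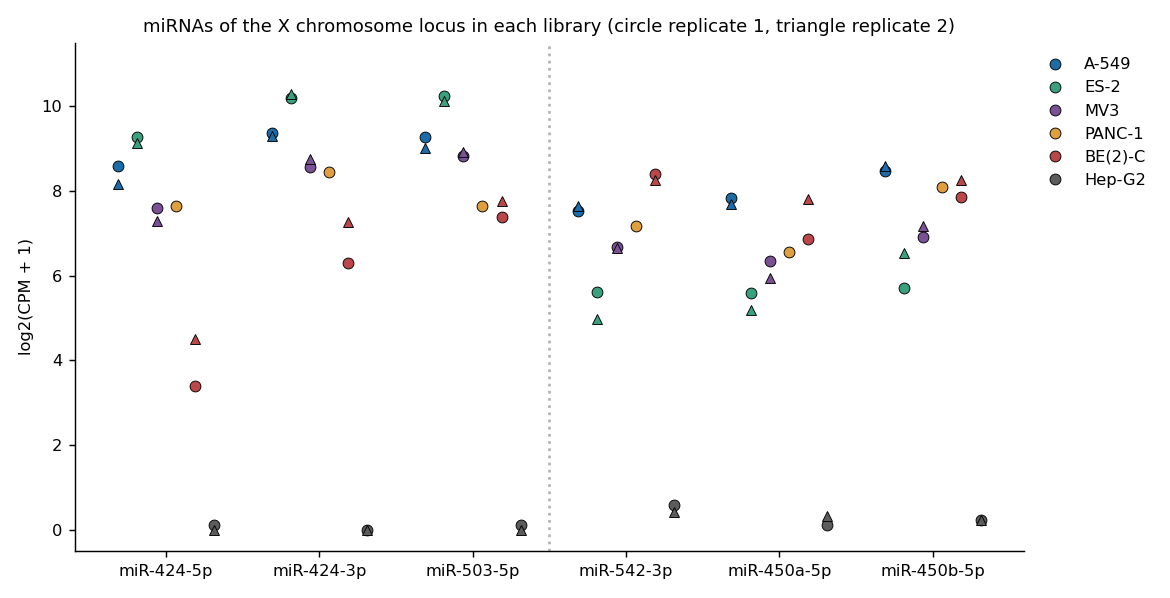
Level as log2(CPM + 1) on the vertical axis of 6 miRNAs of the X chromosome locus, the family members left of the dotted line and their downstream neighbours right of it; colours are cell lines, circles replicate 1 and triangles replicate 2. ES-2 is highest of all lines on the left and the lowest line but Hep-G2 on the right, and BE(2)-C takes the opposite places for miR-424-5p and miR-542-3p.

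The BE(2)-C libraries were kept apart because they disagreed. Replicate 2 was higher for 8 of 9 members, by 1.32-fold for miR-503-5p to 3.12-fold for miR-15a-5p, with 2.20-fold for miR-16-5p and 2.83-fold for miR-15b-5p. Among 401 miRNAs with a BE(2)-C mean of at least 10 CPM, 267 were higher in replicate 2, with a median log2 difference of 0.37. MiR-15b-3p went against this and was 21.8-fold higher in replicate 1, from 929 reads against 37. Both arms of this hairpin thus differed in opposite directions between libraries of the same line. The members' median absolute log2 difference between replicates was 1.11 in BE(2)-C and 0.11 to 0.21 in the other 4 lines with replicates. Over the 401 miRNAs it was 0.63 in BE(2)-C.

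Of the 401 miRNAs, 5 were at least 4-fold higher in replicate 1 of BE(2)-C. They were miR-122-5p (823 against 5.96 CPM), the defining miRNA of hepatocytes, miR-184 (543 against 10.1 CPM), miR-15b-3p (124 against 5.66 CPM), miR-451a (299 against 46 CPM), a miRNA of red blood cells, and miR-10a-5p (99.3 against 17.1 CPM). The 4 liver markers summed to 2272 CPM in replicate 1 and 842 CPM in replicate 2, with miR-122-3p at 1.33 and 0 CPM. Of these, miR-192-5p was also higher in replicate 1 (1288 and 578 CPM), whereas miR-194-5p was higher in replicate 2 (159.7 and 258 CPM). The 4 blood markers summed to 714 and 372 CPM, of which miR-486-5p was 412 and 325 CPM. MiR-142-3p was at 1.33 and 0.459 CPM and miR-223-3p at 0.399 and 0 CPM. Such sums were not particular to BE(2)-C. They were 1356 CPM in PANC-1, almost all miR-486-5p, and 332 and 299.8 CPM in ES-2, mostly miR-142-3p (326 and 286 CPM). MiR-451a alone was at most 4.12 CPM in the other lines. In Hep-G2 miR-122-5p was at 64.0 and 50.0 CPM. The part of these RNAs in the level of miR-15b-3p was not tested. The BE(2)-C libraries also set the error of comparisons they are not part of: without replicate 1, and likewise without replicate 2, 8 members were called for ES-2 against A-549, 7 for MV3 against A-549 and 5 for MV3 against ES-2, in place of 4, 3 and 3 with both. The shares of all miRNAs called rose as well, to 57.9% and 57.8% without replicate 1 and replicate 2 for ES-2 against A-549 (50.5% with both), 58.8% and 59.1% for MV3 against A-549 (57.3% with both), and 38.1% and 39.1% for MV3 against ES-2 (32.8% with both).

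**Figure D5:**
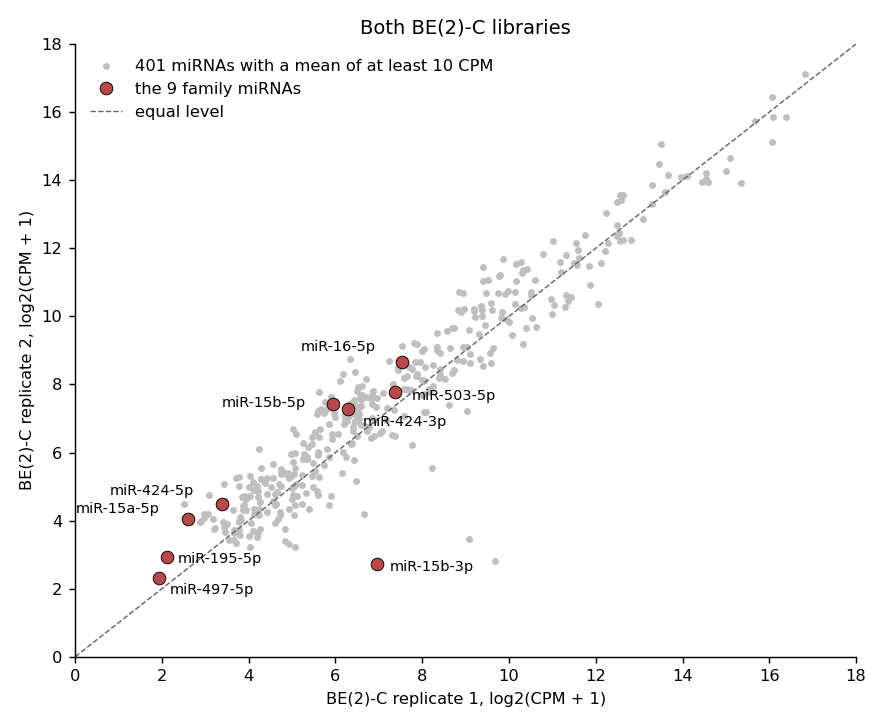
Level in BE(2)-C replicate 1 (horizontal axis) against replicate 2 (vertical axis), both as log2(CPM + 1); grey points are 401 miRNAs with a mean of at least 10 CPM, red points the 9 family members, and the dashed line marks equal levels. Of the 9 red points 8 lie above the dashed line and miR-15b-3p lies far below it, next to few other miRNAs.

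The profiles most like those of 6 members were sought by Pearson r of log2(CPM + 1) line means among the other 545 tested miRNAs. These values are descriptions over 6 lines that also differ in preparation. MiR-16-5p was most like let-7a-5p (r 0.997), miR-15b-5p (0.996) and miR-23a-3p (0.992), and miR-15b-5p most like miR-16-5p, miR-23a-3p (0.990) and let-7a-5p (0.987). MiR-15a-5p was closest to miR-1908-5p (0.990), miR-195-5p to miR-1249-3p (0.990) and miR-424-5p to miR-30a-5p (0.981). MiR-503-5p was closest to miR-1301-3p (0.992) and then to its neighbour miR-424-3p (0.990). Among the members themselves, r was lowest between miR-497-5p and miR-503-5p (0.764).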

How the data were processed

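Small RNA-seq of 11 libraries from 6 cell lines was used. The authors deposited 1 table per line with 2813 rows of mature miRNAs. Values deposited by the authors for PANC-1 are CPM, and those for the other lines are a scaled signal, CPM divided by a factor set within each table. All nonzero values (100.0% per library, tolerance 0.01 reads) were whole multiples of 1 read, so that reads were recovered and CPM recomputed per library. The submitters' processing notes name cutadapt 1.14, Bowtie2 2.3.2, SAMtools 1.5, featureCounts 1.5.3, edgeR 3.30.3 and hg38.

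Rows of one name were summed. MiRNAs whose mean reached 10 CPM in 1 or more lines entered limma fits of log2(CPM + 1) (limma 3.58.1, R 4.3.3, trended eBayes, line as factor, Benjamini-Hochberg over all tested, threshold 0.05, two-sided). Fold changes of weak miRNAs are understated by the added 1. The 5 ratios were tested by an exact permutation test of the F statistic. Alternatives used TMM factors, deposited values, edgeR 4.0.16, DESeq2 1.42.0, a pseudocount of 0.5, no filter, a replicate block and leaving out libraries. The fit was tested on simulated data. Members were chosen by name and not by a cut-off on levels, but members and lists were chosen with earlier results of these data known.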

Additional observations from a re-analysis of the deposited data

How the results depend on the processing

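Most calls kept their direction, and their number depended on which libraries were fitted, the scaling, the filter and the test. Of 9 members, ES-2 against A-549 gave 4 calls, 2 with TMM factors or no filter, 0 with edgeR and DESeq2 (1 member each at an unadjusted p under 0.05), 8 on the NEXTflex libraries alone (chosen after seeing the data) and 2 to 8 without single libraries. MV3 against A-549 gave 3 calls, 3 other ones with edgeR and DESeq2 (the X chromosome members, higher in A-549), 7 on the NEXTflex libraries and 1 to 7 without single libraries. MV3 against ES-2 gave 3 calls, 5 on the NEXTflex libraries and 2 to 5 without single libraries. The highest numbers came with either BE(2)-C library left out, and the lowest for MV3 against A-549 without A-549 replicate 2 or MV3 replicate 1. BE(2)-C against Hep-G2 gave 9 calls, 5 with TMM factors and 4 with edgeR and DESeq2. The companion miR-16-2-3p was called in opposite directions between these lines by limma. It was 2.22 higher in BE(2)-C on CPM (adjusted p = 4.54e-05) but 0.74 higher in Hep-G2 with TMM factors (adjusted p = 0.0236). The cause was not tested beyond these fits.

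The log2 range over lines of the miR-424 arm ratio was 2.89, 0.41 on the NEXTflex libraries and 2.03 without the Hep-G2 line (added after seeing the data), with the latter 2 no longer passing. That of the miR-15b arm ratio was 1.78, and 1.49 to 4.34 without single libraries, passing without either BE(2)-C library. Small uncalled differences of members changed sign. ES-2 minus MV3 became 0.45, 0.50 and 0.39 for miR-15a-5p (TMM factors, edgeR, DESeq2), 0.25, 0.30 and 0.19 for miR-16-5p, and 0.07 and 0.10 for miR-195-5p (TMM factors, edgeR). Without single libraries it ranged from -0.24 to 0.19 for miR-15a-5p and from -0.80 to 0.06 for miR-195-5p. A-549 minus MV3 became 0.17 for miR-15a-5p with DESeq2, and ranged from -0.24 to 0.62 for miR-195-5p. Taking the mean and not the sum of both miR-16-5p rows divides its level by the number of rows.

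Replicate numbers do not pair the libraries: deviations of same-numbered libraries from their line means correlated at -0.05 to 0.11, and the fit with the replicate block gave the same numbers of calls, 4, 3, 3 and 9 of 9 members in the contrasts above. Depth limits miR-497-5p and miR-195-5p, with under 50 reads in most libraries, and all X chromosome members in Hep-G2, with 0 or 1 read.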
